A study of Danio rerio with 10 samples.

Results

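The 200 genes described here are those whose level differed most between 6 RNA libraries of zebrafish blastula embryos. They were taken from the 11185 genes, of 14236 listed at 3.3 hours post fertilization (hpf), with a mean of at least 5 CPM, the reads of a gene scaled to a library total of 1000000. Members were chosen by measured values: each of these genes was ranked by the standard deviation (SD) of log2(CPM + 0.5) over the 6 libraries, without regard to treatment. SDs of the 200 ran from 1.44 to 3.70 with a median of 2.12, against a median of 0.22 over all 11185 genes. The ranking gave no natural break. Just inside it stood tmed1b (SD 1.441), zgc:171626 (1.436) and cyp1d1 (1.435), and just outside zgc:194285 (1.434), tfap2a (1.431) and txnipa (1.420). Because these values chose the genes, every level at 3.3 hpf given for them is a description and carries no test of the spread itself.

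The study exposed zebrafish of the AB line to 50 µg/L of benzo[a]pyrene (BaP), a combustion product. At 3.3 hpf there were 3 control and 3 BaP libraries, and at 96 hpf, in larvae, 2 of each. Controls are labelled only with 0.1 mL/L, without the name of what was added. Every library came from total RNA of pooled whole animals, and the labels do not say how many animals were pooled or whether replicates were separate clutches, so the spread between them may be technical. Depth was 17.5 to 22.2 M assigned reads per library at 3.3 hpf and 13.2 to 17.7 M at 96 hpf, so that 0.5 CPM at 3.3 hpf stood for 8.73 to 11.1 reads.

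A fertilized fish egg starts development on RNA that the mother placed in it, and its own genome is mostly silent during the first cleavages. In the mid-blastula the genome is switched on, many maternal RNAs are cleared, and genes that pattern the embryo are transcribed for the first time. RNA made only from the embryo's genome can therefore go from nearly nothing to abundant within a short time around this stage. tbx16, a T-box transcription factor of mesoderm, and aplnrb, an apelin receptor of early mesendoderm, are 2 such genes. In bulk RNA of whole embryos, fewer cells that make an RNA and less of it per cell cannot be told apart.

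The 6 libraries were far apart in both genes. In the controls, tbx16 was at 2.52, 0.0545 and 0 CPM in replicates 1, 2 and 3, and in the BaP libraries at 0, 98.0 and 1.13 CPM. For aplnrb the controls were at 36.7, 0.0545 and 1.52 CPM and the BaP libraries at 0.146, 139.8 and 4.83 CPM. BaP replicate 2 was thus highest in both and control replicate 1 came second, while control replicate 2 and BaP replicate 1 were at or near 0 in both. The high and the low end each held 1 library of either treatment, so the treatment groups overlapped. These 2 high libraries stand apart from the rest as a pair in aplnrb only. In tbx16, control 1 at 2.52 CPM lay much nearer to BaP 3 at 1.13 CPM than to BaP 2. Counts that rest on the 2 libraries are given below with and without them.

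Members were sorted by the Pearson correlation r, over the 6 libraries, of their log2(CPM + 0.5) with the mean of the standardized tbx16 and aplnrb profiles. With r of at least 0.8, 112 members rose with the pair, tbx16 and aplnrb included, where 4.84% of all 11185 genes had such an r. With r of -0.8 or less, 20 members moved the opposite way, against 6.89% of all. The remaining 68 varied otherwise. The words rising and opposite name these classes. The correlations share the same 6 libraries with the choice of members and are descriptions.

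**Figure D1:**
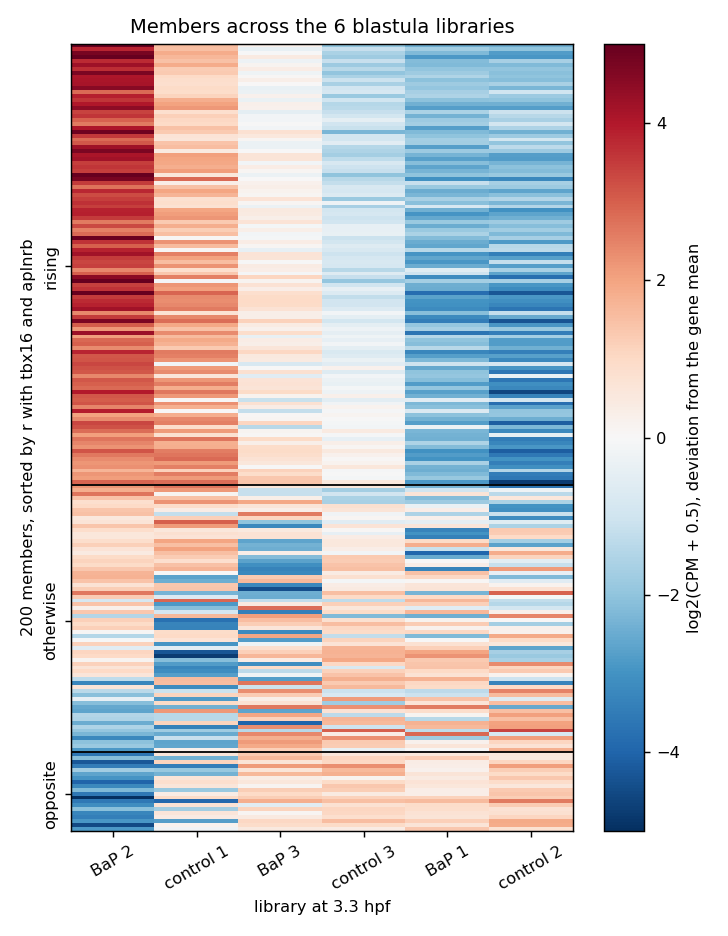
Levels of the 200 members (rows, sorted by r with tbx16 and aplnrb) in the 6 libraries at 3.3 hpf (columns, sorted by tbx16 and aplnrb), as the deviation of log2(CPM + 0.5) from the gene's mean, with colours capped at 5 in either direction. Most of the 112 rising members are highest in BaP 2, then control 1, and lowest in control 2 and BaP 1, while the rows below them are low in differing libraries, and the 20 opposite members are low in BaP 2.

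**Figure D2:**
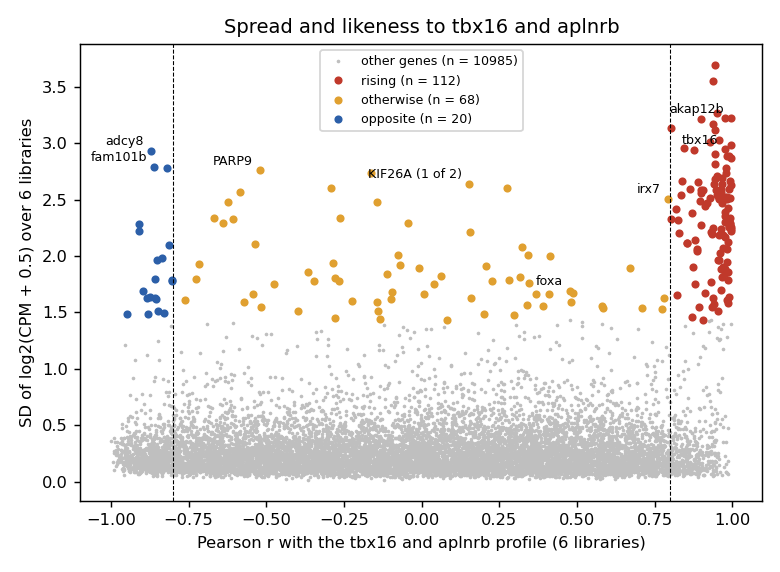
SD of log2(CPM + 0.5) over the 6 libraries (vertical) against r with the tbx16 and aplnrb profile (horizontal) for 11185 genes, with dashed lines at r of 0.8 and -0.8. The 200 members lie above an SD of 1.43, and 112 of them lie to the right of the upper line.

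Most of the 112 rising members shared an order of libraries, called the ladder below. BaP 2 was the highest library for 105 of them and control 1 for the other 7, and these 2 libraries were the top pair for 110. The order BaP 2, control 1, BaP 3, control 3 held at the top in 80. Control 2 and BaP 1 were the lowest pair in 94, and in 50 both lay under 0.5 CPM. The median rising member was at 18.4, 0.327 and 2.88 CPM in control replicates 1, 2 and 3, and at 0.519, 62.1 and 6.55 CPM in BaP replicates 1, 2 and 3. Each treatment therefore had 1 high, 1 middle and 1 low library. When the classes were formed again among the 200 members without BaP 2, 108 rose, 106 of them the same genes. The 200 were chosen with BaP 2 included, and the rule run without it kept 124 of them. The agreement therefore does not show a class independent of that library. Without both high libraries, over the remaining 4, 100 rose and 92 of them were the same genes. In those 4, tbx16 was at 0.0545, 0, 0 and 1.13 CPM, and no share over all genes was computed. With so few libraries and reads of tbx16, nothing is read from this last count.

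Members whose profile was among the most like the pair, over 6 libraries and apart from clone names, were asb11 (r 0.997), cldne (0.996), vgll4l (0.996), akap12b (0.995), fgfr4 (0.994), polr3gla (0.994), prickle1b (0.992), zic2b (0.992) and gata2a (0.989). asb11, an ankyrin repeat and SOCS box protein, was at 7.67, 0 and 0.169 CPM in the controls and at 0, 92.5 and 2.71 CPM in the BaP libraries. akap12b, a scaffold that binds protein kinase A, was at 32.5, 0.873 and 2.53 CPM in the controls and at 0.924, 435.3 and 13.6 CPM in the BaP libraries. Both showed the same ladder, with the level in BaP 2 far above that in control 1 and the other 4 libraries below both.

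Among pluripotency and earliest zygotic transcription factors, 12 of the 21 listed genes with a mean of 5 CPM were members and 11 of these rose. The list was drawn up for early zygotic genes, so this count is a description and no test. sox19a and sox3 are taken first. Both are SoxB1 genes, of the family that with Pou5f3 and Nanog opens the zygotic genome in zebrafish. sox19a was at 22.4, 0.218 and 2.59 CPM in the controls and at 0.583, 83.1 and 7.62 CPM in the BaP libraries. sox3 was at 47.9, 1.36 and 9.24 CPM and at 2.72, 94.5 and 16.2 CPM. Neither separated the treatments, since each treatment held high and low values of both genes.

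The Krüppel-like factors klf2a, klf2b and klf4, the Myc genes mycn and mych, and sox11a, zic2b, nnr and blf rose as well. klf4 was the most abundant of the 3 Krüppel-like genes, at 128.6, 2.24 and 32.6 CPM in the controls and at 8.99, 136.1 and 42.5 CPM in the BaP libraries. Its level in control 1 nearly equalled that in BaP 2. blf, a zinc finger gene, was at 3.45 CPM or more in every library and reached 300.1 CPM in BaP 2. irx7, an Iroquois homeobox gene, just missed the class with r of 0.79. It was at 80.3, 0.491 and 17.6 CPM in the controls and at 1.99, 56.6 and 17.9 CPM in the BaP libraries, with the same low pair but with control 1 above BaP 2.

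Genes of the BMP and dorsoventral axis gave 6 members of 10 with a mean of 5 CPM, and all 6 rose. BMP ligands pattern the ventral side of the embryo, where Vox represses dorsal genes and Gata2a, Gata3 and Foxi1 act in ventral and non-neural ectoderm. The ligand bmp2b was at 11.2, 0.109 and 0.732 CPM in the controls and at 0.0486, 29.3 and 2.44 CPM in the BaP libraries. Its target id1, an inhibitor of helix-loop-helix factors, was at 37.2, 1.85 and 8.80 CPM and at 6.76, 116.5 and 13.8 CPM. vox was at 41.7, 0.382 and 10.4 CPM and at 0.924, 35.6 and 6.77 CPM. Ligand and target shared the ladder with BaP 2 on top, whereas vox was highest in control 1.

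gata3 was at 12.3, 0.109 and 0.676 CPM in the controls and at 0.0972, 50.8 and 3.29 CPM in the BaP libraries. foxi1 reached 25.3 CPM and gata2a 31.5 CPM in BaP 2, from lowest values of 0.583 and 0.924 CPM, both in BaP 1. The 3 ectodermal factors thus had the same top and bottom libraries.

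Of the Nodal and mesendoderm genes, 3 of 9 were members, and the median r of the 9 was 0.57. mxtx2, a homeobox gene of the yolk syncytial layer and mesendoderm, rose with tbx16, at 30.9, 0.273 and 9.38 CPM in the controls and at 0.972, 50.1 and 7.53 CPM in the BaP libraries. foxa, a forkhead gene, varied otherwise, at 44.5, 3.24 and 3.27 CPM in the controls and at 3.65, 8.28 and 0.902 CPM in the BaP libraries. It was high in control 1 alone, the library second in tbx16.

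Of the Wnt and FGF genes, 3 of 12 were members and rose. dusp6, a phosphatase that FGF signalling induces and that dampens it, was at 21.3, 0.164 and 5.30 CPM in the controls and at 0.340, 45.02 and 4.42 CPM in the BaP libraries. The Wnt receptor fzd8a was level between the 2 high libraries, at 17.0 CPM in control 1 and 16.6 CPM in BaP 2. The ligand wnt11, which guides cell movement in gastrulation, was likewise at 26.3 and 29.8 CPM. The Hairy-related repressors her5 and her11 were the 2 members among 5 Notch and her genes, and reached 86.9 and 26.4 CPM in BaP 2.

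A list for the enveloping layer, the first epithelium of the embryo, and for the epidermis gave 6 members of 13, all rising. The 6 include the chemokine receptors cxcr4a and cxcr4b, so the count is of the list and assigns no cell type. The keratins krt8 and krt18, partners in simple epithelia, were nearly confined to BaP 2. krt18 was at 1.85, 0.218 and 0.563 CPM in the controls and at 0, 68.1 and 1.62 CPM in the BaP libraries. krt8 was at 5.996, 2.02 and 3.04 CPM and at 1.85, 89.1 and 4.11 CPM. For both, control 1 lay closer to the low libraries than to BaP 2 in CPM.

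grhl3, a Grainyhead-like factor of the epidermal barrier, was at 41.4, 2.34 and 5.24 CPM in the controls and at 1.41, 141.6 and 14.7 CPM in the BaP libraries. The claudin cldne, a tight junction protein, reached 27.9 CPM, and the chemokine receptors cxcr4a and cxcr4b, counted in the same list, reached 83.2 and 75.3 CPM in BaP 2. Summed over all 17 listed genes of this list the controls had 1803, 2358 and 1870 CPM, and the BaP libraries had 2169, 2147 and 1773 CPM. That sum, in which abundant genes weigh most, did not follow the ladder. Gene by gene, 7 of the 13 with a mean of 5 CPM had r of 0.8 or more, against 4.84% of all genes, and 1 had r of -0.8 or less. All but tfap2a of the 7 were members. The median r of the 13 was 0.93. krt8, krt18 and cldne reached a mean of 5 CPM only through BaP 2, the library furthest out in the tbx16 and aplnrb profile. For these a high r was in part built in, so nothing is read from the share or the median.

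Of the 2 yolk syncytial layer genes with a mean of 5 CPM, apoeb, an apolipoprotein, was a member and rose, at 45.6, 0.763 and 7.94 CPM in the controls and at 1.52, 135.7 and 13.4 CPM in the BaP libraries. The sum over the 4 listed genes of that layer ran from 657.5 to 1121 CPM over the controls and from 816.8 to 1027 CPM with BaP. Among cell cycle, damage and growth control genes known to be made in the early embryo, 5 of 24 were members and all rose. As that list was chosen for early expression, the count says nothing of such genes in general. The cyclin ccnd1, a member from this list, was at 17.0, 3.98 and 16.3 CPM in the controls. In the BaP libraries it was at 9.97, 267.3 and 7.17 CPM, high in BaP 2 alone. The small heat shock protein gene hspb1 was at 5.15 to 9.91 CPM in 5 libraries and at 117.6 CPM in BaP 2. gadd45bb and ier5 followed the common ladder and reached 55.0 and 23.5 CPM in BaP 2. dact1 reached 25.0 CPM there, but had BaP 1, at 0.535 CPM, just above control 3, at 0.507 CPM. ftr82, a finTRIM gene, was the 1 member among 11 genes of polymorphic immune families and rose.

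Members made up 1.79% of the 11185 genes, so that short lists can lack one. None of 41 germ plasm and oocyte genes, stored by the mother, was among the 200, and their median SD was 0.25, beside 0.22 over all. For 9 of the 41, r was -0.8 or less, where 6.89% of all genes had such an r, and the median r was -0.55, against 0.00 over all. The summed level of the list's 42 listed genes was lowest in BaP 2, at 10167 CPM. BaP 1 and BaP 3, at 12850 and 11614 CPM, lay within the range of the controls, 11388 to 13225 CPM. None of 74 ribosomal protein genes and none of 9 histone genes was a member. Of the blood, liver, muscle and lens genes of later animals, a check for other tissue, only acta1b was listed, at 0.422 to 2.92 CPM. The part of any cell type or stage difference in the spread was not tested.

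Rising members also differed in how far BaP 2 stood above control 1. The log2 ratio of the 2 libraries, with 0.5 CPM added to each, ran from -0.48 to 5.27 with a median of 1.60. It was above 2 in 38 rising members, between 0 and 2 in 67 and below 0 in 7. Apart from clone names, the widest ratios were those of has2, the hyaluronan synthase (5.27), tbx16 (5.03), krt18 (4.87), ccnd1 (3.94), krt8 (3.79) and akap12b (3.72). Ratios near 0 belonged to wnt11 (0.18), klf4 (0.08), klf2b (-0.04), fzd8a (-0.04) and vox (-0.23). These values compare 2 single libraries and have no replicate error.

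The middle libraries of a gene from each end can be set side by side. has2 was at 1.37, 0.109 and 0 CPM in the controls and at 0.0972, 71.6 and 1.62 CPM in the BaP libraries. klf2b was at 62.3, 0.327 and 10.8 CPM in the controls and at 0.924, 60.5 and 17.5 CPM in the BaP libraries. klf2b was over 10 CPM in 4 of the 6 libraries, has2 in 1. This does not extend to all genes named at the ends: ccnd1, with a wide ratio, was at 16.3 CPM in control 3, and fzd8a, with a ratio near 0, at 2.76 CPM. The genes named at both ends of the ratio were picked after their values were seen.

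**Figure D3:**
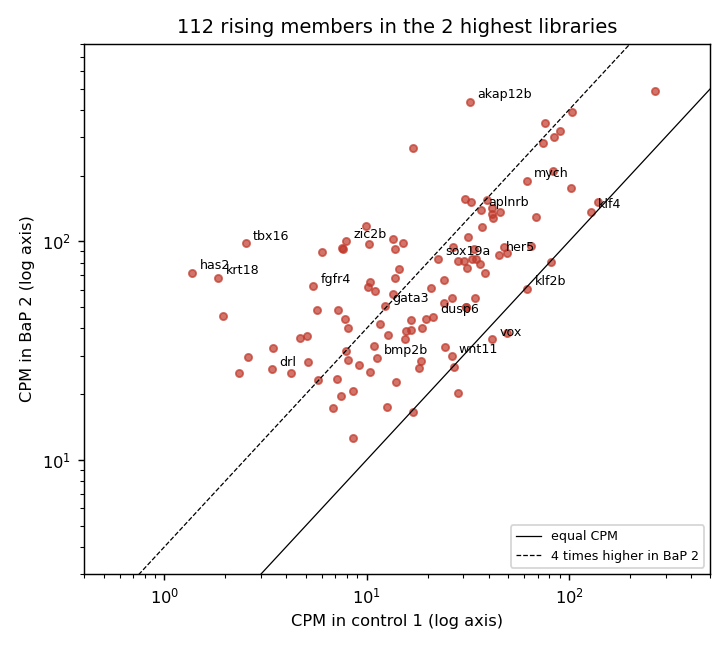
CPM of the 112 rising members in control 1 (horizontal, log axis) and BaP 2 (vertical, log axis), with lines for equal CPM and for 4 times more in BaP 2, no constant added. tbx16, has2 and krt18 lie far above the upper line, and vox, klf2b and wnt11 lie close to equality.

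Of the rising members, 51 bear clone names in place of a gene symbol. At 96 hpf, 20 of these 51 (39.2%) were listed, with a median of 2.94 CPM in controls, against 53 of the 61 with other symbols (86.9%), with a median of 34.6 CPM. Among all 11185 genes the shares were 77.2% and 96.2%. At 3.3 hpf, control 2 and BaP 1 were both under 0.5 CPM in 26 of the 51 and in 24 of the 61. The log2 ratio of BaP 2 to control 1 was above 2 in 12 of the 51 and in 26 of the 61, with medians of 1.37 and 1.77. Symbols that number a copy, written as 1 of several, made up 0.893% of rising members, 25.0% of opposite ones and 14.7% of the rest, beside 8.24% of all 11185. How alike such copies are in sequence was not examined. Where copies are near-identical, reads could have been split between them, so these members are uncertain.

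The 88 members that did not rise had no common order. The widest gap among the 6 sorted log2 values was taken as the border between low and high libraries. By this border 38 of the 88 were low in 1 library alone, 30 in 2, 10 in 3, 7 in 4 and 3 in 5, in 31 different sets of libraries. The single low library was BaP 2 for 13, BaP 3 for 9, control 1 for 8 and BaP 1 and control 2 for 4 each, and for none was it control 3. Of the 131 genes with a mean of 5 CPM and some library under 0.5 CPM, 125 were members, 70 of them rising. This overlap largely follows from the rule, since such a low value makes the SD large.

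The 20 opposite members were of 2 kinds. In 12 BaP 2 alone was low, and in 8 control 1 and BaP 2 were. A low value in BaP 2 alone could be enough to enter the class. Of the 13 members low in that library alone, only zgc:198419, with r of -0.76, did not enter it. The mean standardized profile of tbx16 and aplnrb was at 1.69 in BaP 2 and at -0.82 to 0.54 in the other libraries. fam101b, now named rflnb, a regulator of the actin-binding filamins, was of the first kind, at 59.0, 71.8 and 68.2 CPM in the controls and at 67.4, 0.0935 and 71.1 CPM in the BaP libraries. adcy8, an adenylyl cyclase, was of the second, at 1.43, 178.7 and 83.6 CPM in the controls and at 89.0, 2.01 and 102.7 CPM in the BaP libraries. Neither declined step by step along the ladder of the rising members. BaP 3 and control 3, in its middle, were at 71.1 and 68.2 CPM of fam101b and at 102.7 and 83.6 CPM of adcy8. At its low end, BaP 1 was at 67.4 and 89.0 CPM of the 2 genes and control 2 at 71.8 and 178.7 CPM. Control 2 was the highest library in both genes.

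HEATR1 (2 of 2), a copy related to a nucleolar protein, lay near 0 in control 1 and BaP 2, at 23.3 and 27.4 CPM in controls 2 and 3, and at 6.55 and 23.9 CPM in BaP 1 and 3. pax1b, a paired box gene, was at 0.229, 6.78 and 12.3 CPM in the controls and at 5.34, 0.0935 and 11.0 CPM in the BaP libraries. Both were low in the same 2 libraries, those highest in tbx16. Formed again among the 200 without BaP 2, the opposite class had 8 members, 3 of them the same genes. Without both high libraries it had 16, of which 2 were the same genes, with tbx16 at 1.13 CPM or less in those left.

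**Figure D4:**
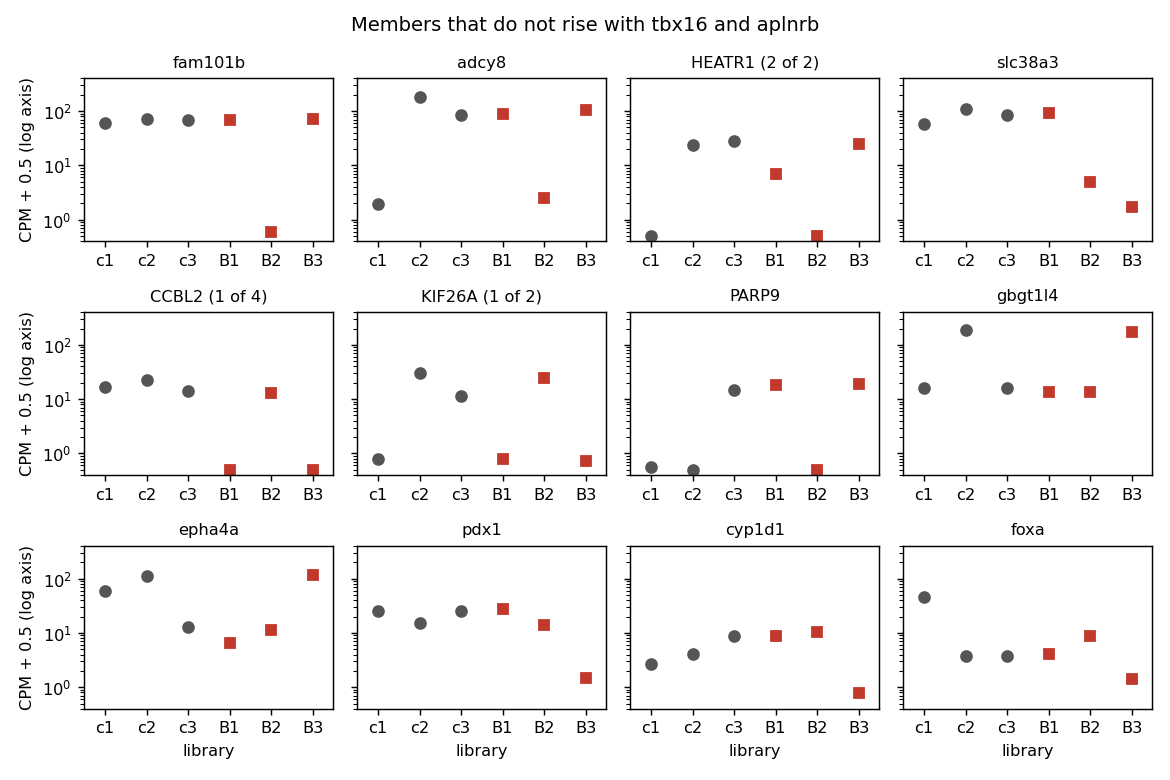
CPM + 0.5 (log axis) of 12 members that did not rise, in control replicates 1 to 3 (grey circles, c1 to c3) and BaP replicates 1 to 3 (red squares, B1 to B3). The low libraries differ from gene to gene: BaP 2 for fam101b, control 1 and BaP 2 for adcy8, BaP 1 and BaP 3 for CCBL2 (1 of 4).

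Members that varied otherwise dropped in other combinations. PARP9, an ADP-ribosyltransferase family gene, was at 0.0573, 0 and 14.1 CPM in the controls and at 17.6, 0 and 18.2 CPM in the BaP libraries. KIF26A (1 of 2), a kinesin, was at 0.286, 30.1 and 10.9 CPM and at 0.292, 24.3 and 0.226 CPM. slc38a3, an amino acid transporter, was at 58.3, 110.8 and 84.1 CPM and at 90.2, 4.49 and 1.22 CPM. Each had 2 or 3 libraries far below the others, in a different combination each time.

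pdx1, a homeobox gene known from pancreas, was at 24.7, 14.9 and 25.1 CPM in the controls and at 26.9, 13.3 and 0.947 CPM in the BaP libraries, low in BaP 3 alone. cyp1d1, a cytochrome P450 of family 1 and the 1 member among 4 aryl hydrocarbon receptor targets with a mean of 5 CPM, was at 2.18, 3.65 and 8.22 CPM and at 8.13, 9.91 and 0.271 CPM. It too was lowest in BaP 3, and its groups overlapped. A few members stood high in few libraries instead. gbgt1l4, a glycosyltransferase gene, was at 189.2 CPM in control 2 and 169.1 CPM in BaP 3, and at 12.9 to 15.9 CPM in the other 4. epha4a, an ephrin receptor, was at 59.2, 110.0 and 12.2 CPM in the controls and at 5.93, 10.7 and 118.3 CPM in the BaP libraries, highest in the same pair.

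Some neighbouring genes shared a pattern. Of the 200, 122 could be placed in the gene order of a current zebrafish reference, 55 of them among the 88 that did not rise. Pairs of members at most 20 gene positions apart numbered 27. In 11 of them neither gene rose, and in 9 of these 11 both genes were low in the same libraries. The 9 pairs held 10 genes, and most of the pairs lay within 1 family of F-box genes.

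The 4 neighbouring F-box genes are the longest such run of members. Their names in the files are fbxo44, zgc:153722, zgc:114081 and si:rp71-1k13.8, and they belong to the fbxo44 and fbxo6 family of ubiquitin ligase adaptors. In BaP 2 they were at 0.234, 0.187, 0.0468 and 0.140 CPM. In the other 5 libraries fbxo44 was at 17.5 to 29.6 CPM and zgc:114081 at 12.5 to 16.3 CPM. All 4 were missing or nearly so from the same single library. As close relatives they may share reads, which makes their separate levels uncertain.

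Unrelated neighbours did likewise. loxl2b, a lysyl oxidase-like enzyme, was at 0.115, 10.1 and 15.9 CPM in the controls and at 9.77, 7.90 and 2.08 CPM in the BaP libraries. sfrp1a, a secreted Wnt antagonist 3 positions away, was at 0.630, 12.3 and 13.3 CPM and at 14.0, 19.0 and 6.93 CPM. Both were lowest in control 1, and so were the 2 genes listed between them, si:dkeyp-38h2.2 (0.229 CPM) and zmat4a (0.458 CPM), which are no members.

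In BaP 3, si:ch1073-127d16.1 and its neighbour si:ch73-367f21.4 were at 0.180 and 0.565 CPM, with lowest values elsewhere of 6.55 and 30.8 CPM. The genes listed on either side, zgc:162972 and si:ch73-367f21.6, were lowest there too, at 0.406 and 0.251 CPM, while flot1a, the next one along, was at 104.6 CPM. Another pair, si:dkey-19a16.7 and zgc:171490, was listed at 0 in control 1 and was next lowest in control 2.

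**Figure D5:**
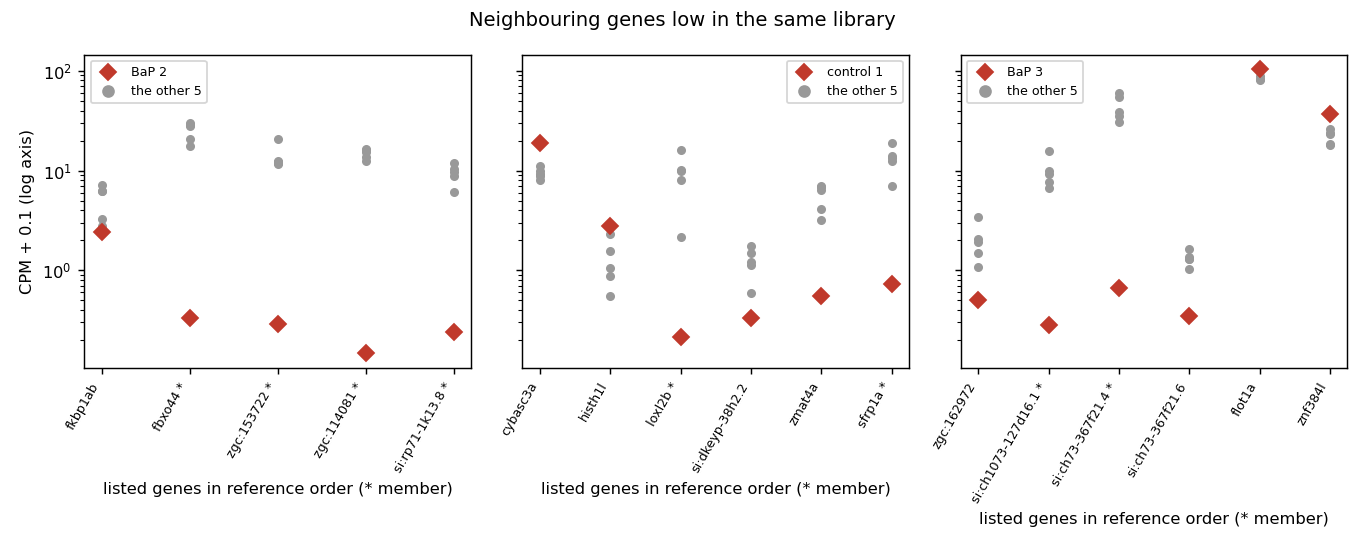
CPM + 0.1 (log axis) of listed genes in reference order (horizontal, members starred) around 3 groups of members, with the library in which the group is low as a red diamond and the other 5 as grey circles. The low value is shared by adjacent genes, while cybasc3a, histh1l, flot1a and znf384l are not lowest in that library and fkbp1ab, at 2.34 CPM, is only just so.

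Several rising neighbours were relatives. her5 lay beside her11, krt8 beside krt18, and drl, a zinc finger gene of early blood and heart precursors, beside the related si:dkey-261j4.3 and si:dkey-261j4.5. The last was at 90.4, 2.95 and 11.3 CPM in the controls and at 2.26, 318.8 and 29.1 CPM in the BaP libraries. In these families too, reads common to relatives cannot be separated here. wnt11 rose, while mogat2, a monoacylglycerol acyltransferase gene 6 positions away, was in the opposite class, with r of -0.63 between the 2 genes. mogat2 was at 0.0472 CPM in BaP 2 and at 2.71 to 10.7 CPM in the other libraries. In control 1, where wnt11 was at 26.3 CPM, mogat2 was at 7.32 CPM and not low.

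A second annotation of the same libraries, RefSeq transcripts, held 96 members by symbol. For 95 of them the levels over the 6 libraries correlated with r of at least 0.8, and the median r was 0.9998. The exception was mgrn1a, a ubiquitin ligase gene. In the Ensembl table it was at 0.730, 52.0 and 5.70 CPM in the controls and at 38.7, 3.92 and 64.1 CPM in the BaP libraries. Under RefSeq it was at 131.6, 121.9 and 104.5 CPM and at 94.7, 94.3 and 81.6 CPM, with no library near 0. The spread of mgrn1a thus depended on the gene model, and the other 95 did not change in this way.

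In larvae at 96 hpf, whose tables were scaled separately, 140 of the 200 members were listed, against 93.9% of all 11185 genes. By class, 65.2% of rising, 85.0% of opposite and 73.5% of other members were listed, with median control levels of 23.1, 6.60 and 9.51 CPM. tbx16, asb11, vox, her5, her11, nnr and mxtx2 have no row there. Among the abundant ones, krt8 was at 967 and 881 CPM in the 2 controls. foxi1 and wnt11, in contrast, lay at 0.456 and 0.983 CPM and at 0.988 and 1.60 CPM.

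Larval replicates differed little in most members, with exceptions given below. For members with a mean of 5 CPM there, the median SD within a treatment on the log2 scale was 0.17 over 51 rising and 0.14 over 11 opposite members. It was 0.17 over 39 other members, beside 0.14 over 8695 genes. The largest was 1.11, of PPP1R37 (1 of 2), at 3.30 and 11.3 CPM in controls and 5.25 and 15.8 CPM with BaP. ME2 (1 of 2), under that mean, was at 3.42 and 0.000375 CPM in controls and 0.000168 and 2.51 CPM with BaP. aplnrb, at 0.0545 to 139.8 CPM in the blastula, was at 21.6 and 24.6 CPM in control larvae and at 22.6 and 20.5 CPM in BaP larvae. adcy8 was at 13.0, 14.5, 15.5 and 14.6 CPM in the same order. The 4 larval libraries nearly coincided in both genes.

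BaP and control were compared at each age with limma over all listed genes, with Benjamini-Hochberg adjustment and a threshold of 0.05. At 3.3 hpf, 0 of the 200 members were called, and 0.0% of all 14236 genes. At an unadjusted p under 0.05, 10 members passed, where 4.81% of all genes did. The groups did not overlap in 7 of 200 members, against 11.3% of all. Members were chosen for a wide spread over these same 6 libraries, which widens the spread within groups that the fit divides by. The counts at 3.3 hpf are therefore no independent test, and nothing is read from them.

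Without BaP 2, 1 gene of the table was called, the member CCBL2 (1 of 4), a copy related to kynurenine aminotransferases. It was at 16.0, 21.8 and 13.7 CPM in the controls and at 12.3 CPM in BaP 2, and was all but 0 in BaP 1 and BaP 3. BaP 2 was the BaP library level with the controls. As a numbered copy its level is uncertain. The call rests on values that chose the members, so nothing is read from it.

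At 96 hpf, 2 of 140 members were called, where 0.423% of all 18910 genes were. mgrn1a was at 8.96 and 7.71 CPM in the controls and at 21.7 and 20.2 CPM in the BaP libraries, a log2 difference of 1.37 (SE 0.19, n = 2 against 2, limma adjusted p = 0.0319). Under RefSeq its log2 difference was 0.03 (limma adjusted p = 0.952), so this call too was tied to the gene model. HEATR1 (2 of 2) was at 4.68 and 4.22 CPM in the controls and at 14.7 and 12.2 CPM in the BaP libraries, a log2 difference of 1.57 (SE 0.21, limma adjusted p = 0.0322). On CPM without TMM scaling neither passed, with limma adjusted p-values of 0.0626 and 0.0677, and without control 2 mgrn1a had 0.0564. Without BaP 1, 21 members were called, with 3434 of all 18910 genes, and without BaP 2, 6 members, with 233 of all genes.

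None of the 41 members on the gene lists was called at either age, but some, tbx16 and vox among them, had no row at 96 hpf. Of all genes tested, 0.0% were called at 3.3 hpf and 0.423% at 96 hpf, so nothing is read from this count. Next in order of p at 96 hpf came mid1ip1a, drl, cldne, tsc22d3, si:ch211-66k16.27, si:dkey-19a16.7, grhl3 and gbgt1l4, with limma adjusted p-values of 0.115 to 0.192. drl was at 2.28 and 1.94 CPM in the controls and at 0.264 and 0.394 CPM in the BaP larvae, a log2 difference of -1.60 (SE 0.33). cldne was at 48.8 and 59.6 CPM and at 75.8 and 92.8 CPM, a log2 difference of 0.72 (SE 0.16). grhl3 was at 3.81 and 6.63 CPM and at 9.27 and 14.4 CPM, a log2 difference of 1.203 (SE 0.31). The groups did not overlap in any of the 3. Over all members listed at 96 hpf, groups did not overlap in 63 of 140, beside 49.7% of all genes, and 23 had an unadjusted p under 0.05, beside 15.7%.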

How the data were processed

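RNA-seq libraries were made from total RNA with a TruSeq kit, per the labels. The values used are CPM deposited by the authors, with every column of a table summing to 1000000, not corrected for length. The values themselves show this, although the files are titled as counts. TopHat, Partek, edgeR and the build Zv9 appear, with neither versions nor roles, per the submitters' processing notes. The annotation is Ensembl release 70 or RefSeq, per the file headers and annotation column. Depth was inferred from the CPM step of 1 read. Only 35.1% to 40.5% of values at 3.3 hpf and 51.6% to 65.2% at 96 hpf came out as whole reads within 0.05 reads, so no count test was run, and how reads were split between features is not given in the sources used here. CPM as deposited, with a pseudocount of 0.5, gave members and classes. No column was left unmapped.

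BaP was compared with control by limma 3.58.1 in R 4.3.3 (lmFit, eBayes with trend, group as the only term) on log2(TMM-scaled CPM + 0.5) over all listed genes, each age alone. TMM trimmed 30% of log ratios and 5% of levels, and factors were 0.972 to 1.03 at 3.3 hpf and 0.945 to 1.06 at 96 hpf. Tested on simulated tables with 200 changed genes of 14236 at 3.3 hpf, the fit recovered 42.9% of 2-fold and 81.9% of 4-fold changes. Of 18910 genes at 96 hpf it recovered 62.6% and 96.6%. Of its calls there, 5.58% at 3.3 hpf and 10.3% at 96 hpf were on unchanged genes, the latter above the nominal rate. Changed genes were drawn without regard to their spread, and the simulated noise was independent between genes. The rates at 3.3 hpf therefore do not apply to the members, which were chosen for a wide spread there. Other work used Python 3.11.15. Alternatives were other scalings, pseudocounts, filters, cutoffs, annotation, a replicate block and leaving out libraries.

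Genes named are tbx16, aplnrb, the 10 symbols of highest r, the 10 of largest SD per class, members of the gene lists, the 10 smallest p at 96 hpf and ranks 198 to 203, with neighbours and others chosen after their values were seen. A gene that the rule names is not reported here. The members and lists were chosen with earlier results of these data known. Gene order and current names came from a RefSeq gene table of another build, used without coordinates.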

Additional observations from a re-analysis of the deposited data

How the results depend on the processing

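The membership followed the mean level required. With a minimum of 20 CPM, 59 of the 200 stayed among the top 200. These were all the members with such a mean, since a higher minimum only removes genes. With a minimum of 1 CPM, 160 stayed. Other scalings kept 199, pseudocounts of 0.1 and 2 kept 193 and 176, and the RefSeq table kept 94, of 96 members it held. Leaving out 1 library kept 124 (without BaP 2) to 186, and leaving out control 1 and BaP 2 together, chosen after seeing the data, kept 78. The number rising with tbx16 and aplnrb was 87 to 116 over other cutoffs, measures and pseudocounts, and 108 to 115 with 1 library left out. The opposite class was less stable: it fell to 3 at an r cutoff of 0.9, 8 by Spearman's rho and 10 by aplnrb alone, was 16 without control 1 and BaP 2, and ran from 8 (without BaP 2) to 24 with 1 library left out. Of the 20 in the main setting, 12 were low in BaP 2 alone, the library furthest out in the tbx16 and aplnrb profile. The cause was not tested. The count of members called at 3.3 hpf was 0 in every alternative except without BaP 2, where it was 1, so leaving out 1 library gave 0 to 1. At 96 hpf it was 0 on CPM as deposited and 0 under RefSeq, where 80 members were tested, and 2 to 21 with 1 library left out. It was 21 without BaP 1 and 6 without BaP 2, where 3434 and 233 of all 18910 genes were called, against 98 and 102 without control 1 and control 2. A group then rests on 1 library, assumed to vary like the others. mgrn1a also missed the threshold without control 2 (log2 1.23, limma adjusted p = 0.0564). Its log2 difference was 1.28 on CPM as deposited and 0.03 under RefSeq, and that of HEATR1 (2 of 2) was 1.49 on CPM as deposited. HEATR1 (2 of 2) had no row of that name under RefSeq, so the count of 0 there did not retest it. Whether replicate numbers pair the samples cannot be told from the labels. Deviations of same-numbered libraries from their group means correlated at -0.44, -0.43 and -0.01 at 3.3 hpf and at -0.26 at 96 hpf. In groups this small the deviations constrain each other, so these values cannot settle it. A replicate block left 0 members called at 3.3 hpf and 2 at 96 hpf, with 132 of all genes in place of 80. With the 96 hpf numbers crossed, an alternative chosen after seeing the data, 15 members and 2102 of all genes were called. Of the listed members, 101 had a mean of 5 CPM or more at 96 hpf. Depth limits values under 0.5 CPM, which rest on 8.73 to 11.1 reads or fewer at 3.3 hpf.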
